A study of Mus musculus with 12 samples.

Results

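The genes described here are 34 genes of the unfolded protein response and of endoplasmic reticulum (ER) degradation, taken by gene symbol from a table of 13304 genes measured in mouse liver, and all 34 were found in it. They were sorted by textbook function into an XBP1 branch of 11 genes, an ATF6 branch of 13 genes and a PERK-ATF4 branch of 10 genes. The study asked what the loss of MAF1, a repressor of RNA polymerase III, changes in the liver. Liver RNA of 5 *Maf1*-/- mice and 7 wild-type (WT) mice was sequenced, 1 library per mouse. All mice were C57Bl/6J, 12 to 14 weeks old and on a chow diet, and all had gone through an overnight fast and 4 h of refeeding when the livers were perfused and collected. The *Maf1*-/- mice lack the gene throughout the animal, not in hepatocytes alone. The values are those of a whole organ, in which fewer cells of a type and less RNA per cell cannot be told apart.

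Proteins that enter the secretory pathway fold in the ER with the help of chaperones, lectins and oxidoreductases, and those that fail to fold are moved back to the cytosol and destroyed by the proteasome, a route called ER-associated degradation. When unfolded protein accumulates, a trio of sensors in the ER membrane responds. IRE1 (the product of *Ern1*) splices the *Xbp1* mRNA into the form that encodes an active transcription factor, ATF6 is cut in the Golgi to release its own transcription factor domain, and PERK (*Eif2ak3*) phosphorylates eIF2 alpha, which lowers translation in general but favours that of *Atf4*. Hepatocytes secrete most plasma proteins and keep this system active, and refeeding after a fast is known to engage it in mouse liver. Several targets answer to both XBP1 and ATF6, so that the branches are not separate sets of genes in the cell. The values are of mRNA only, and neither *Xbp1* splicing nor the cleavage or phosphorylation of a sensor was measured.

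The XBP1 and ATF6 arms meet at a promoter element, the ER stress response element (ERSE), which pairs a CCAAT box with CCACG across a spacer of fixed length. It is printed here because it marks which of the 34 genes carry the classical target sequence of both factors, among them the chaperone gene *Hspa5* and both ER degradation genes with the lowest fold changes below. Promoter windows of 300 bases (250 before the gene start and 50 after it) came from RefSeq annotation of GRCm38.p6, the build of the deposited table, and 30 of the 34 genes had one, without *Atf6*, *Hyou1*, *Manf* and *Derl1*. The motif searched, on both strands, was CCAAT followed by any 9 bases and CCACG. It was present in 9 of these 30 genes, 3 of 10 in the XBP1 branch, 6 of 10 in the ATF6 branch and 0 of 10 in the PERK-ATF4 branch, and in 37 of the 27025 genes with a window (0.137%). In the sequences, given 5′ to 3′ along the strand on which the motif reads as CCAAT followed by CCACG, capitals mark the fixed bases of the motif.
Derl3, chr10:75893232-75893270, minus strand: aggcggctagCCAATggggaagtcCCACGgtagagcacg
Syvn1, chr19:6046522-6046560, plus strand: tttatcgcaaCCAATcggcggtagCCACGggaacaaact
Creld2, chr15:88819510-88819548, minus strand: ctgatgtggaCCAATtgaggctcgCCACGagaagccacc
Hspa5, chr2:34772015-34772053, plus strand: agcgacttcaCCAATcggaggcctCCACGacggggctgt
Pdia6, chr12:17266481-17266519, plus strand: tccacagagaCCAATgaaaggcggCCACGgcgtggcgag
Calr, chr8:84847065-84847103, plus strand: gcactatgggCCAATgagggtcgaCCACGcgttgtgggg
Their centres lay 35 bases (*Syvn1*) to 153 bases (*Calr*) before the gene start, with 147 bases for *Derl3* and 56 bases for *Hspa5*. *Canx*, *Dnajc3* and *Hsp90b1*, which had 2 copies, carried the same motif.

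A shorter relative, ERSE-II (ATTGG, any 1 base and CCACG), was found in *Herpud1* and *Dnajb11* and in 12 of the 27025 genes (0.0444%). The PERK-ATF4 genes carried another motif, the core TGATGNAA to which ATF4 binds together with a C/EBP partner. It was found in *Asns*, *Atf3*, *Chac1* and *Trib3*, 4 of the 10 PERK-ATF4 genes, and in *Herpud1*, against 4.51% of all genes with a window. The *Asns* and *Chac1* sites are shown because these genes had opposite signs below although both hold the core, and the *Herpud1* site shows the ERSE-II of an ER degradation gene.
Asns, chr6:7693215-7693242, minus strand: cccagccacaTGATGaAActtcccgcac
Chac1, chr2:119351039-119351066, minus strand: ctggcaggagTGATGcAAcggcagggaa
Herpud1, chr8:94386367-94386397, plus strand: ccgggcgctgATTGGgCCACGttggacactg
The core of the unfolded protein response element bound by XBP1, TGACGTGG, was in none of the 30 windows, against 0.714% of genes. A cyclic AMP response element, TGACGTCA, was in *Ppp1r15a* alone, against 2.03% of genes. These matches are of letters only, and their absence from a window says nothing of sites elsewhere.

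The libraries were sequenced to 34709661 to 41931441 reads in the listed genes for *Maf1*-/- (median 38637056) and 35003720 to 55787438 reads for WT (median 41295043). *Maf1* had 5 to 52 reads in *Maf1*-/- and 254 to 534 reads in WT libraries, and all 10 hepatocyte markers were measured, with *Alb* at log2 values of 16.30 to 16.78 in *Maf1*-/- and 16.21 to 16.57 in WT liver. The values are log2 counts per 1000000 reads of a scaled library size (log2 CPM), with 0.5 of a read added to each count, and are not divided by gene length. Fold changes are *Maf1*-/- over WT on that log2 scale with their standard errors (SE) from limma. A gene was counted as changed at a Benjamini-Hochberg adjusted p under 0.01 over all 13304 genes together with an absolute log2 fold change above 0.5. Only 2 genes, *Maf1* and *Gm35339*, passed, *Gm35339* with log2 values of 5.24 to 5.98 in *Maf1*-/- and -0.18 to 0.90 in WT liver. Library WT 2 stood apart in its slope of expression on GC content, with -0.57 log2 units per 10 points of GC against 0.14 to 0.35 in the other WT and -0.54 to 0.08 in the *Maf1*-/- libraries. Over all genes it lay nearer the *Maf1*-/- mean than the mean of the other WT libraries for 80.8% of genes, against 19.2% to 38.2% for the other 6 WT libraries. The main counts are therefore also given without WT 2. Leaving out a WT library that lies near the *Maf1*-/- mean widens the difference between the groups through that choice. Over all genes, 2 passed the threshold with all libraries and 904 without WT 2, so those counts are not an independent check. Without WT 2 every remaining WT library also had a higher GC slope than every *Maf1*-/- library, so genotype and GC slope cannot be told apart.

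None of the 34 genes passed the threshold, against 0.015% of all genes, and their adjusted p (limma) ran between 0.192 and 0.971. At an unadjusted p under 0.05, 11 of the 34 were lower in *Maf1*-/- liver (32.4%), against 13.2% of all genes, and 1 was higher, against 9.9%. Because the genes, branches and lists were chosen with earlier results of these data known, such shares describe them and do not test them. The log2 fold change was negative for 27 of 34, against 52.9% of all genes, and its median was -0.24 against -0.02. It was under -0.5 for 10 genes, against 12.2% of all genes, and above 0.5 for 1, against 3.77%. For no gene did the groups separate without overlap, while every *Maf1*-/- library lay below the WT median for 14 of the 34, against 22.2% of all genes. Without WT 2, 4 genes passed (*Derl3*, *Atf5*, *Ppp1r15a* and *Sesn2*), against 6.79% of all genes, and 15 were lower at an unadjusted p under 0.05, against 25.8%. With a GC and length correction and without WT 2, 0 of the 34 passed, against 0.128% of all genes. The count past the threshold was 5 with 1 factor taken from the residuals of the fit (8.09% of all genes), 10 with libraries weighted by their spread (15.2%) and 1, *Atf5*, with both a GC and length correction and a factor (1.46%). Being taken after genotype was fitted, the factor is unrelated to genotype by construction. It left every fold change as it was, changed only the SE and p, and so corrects no difference between the groups. With the weights 19 genes were lower at an unadjusted p under 0.05 (29.3% of all genes), and with the correction and the factor 17 were (22%). With the replicate number as a block, over libraries 1 to 5 of each genotype, 4 were lower (1.77%) and none passed (0.00752%).

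**Figure D1:**
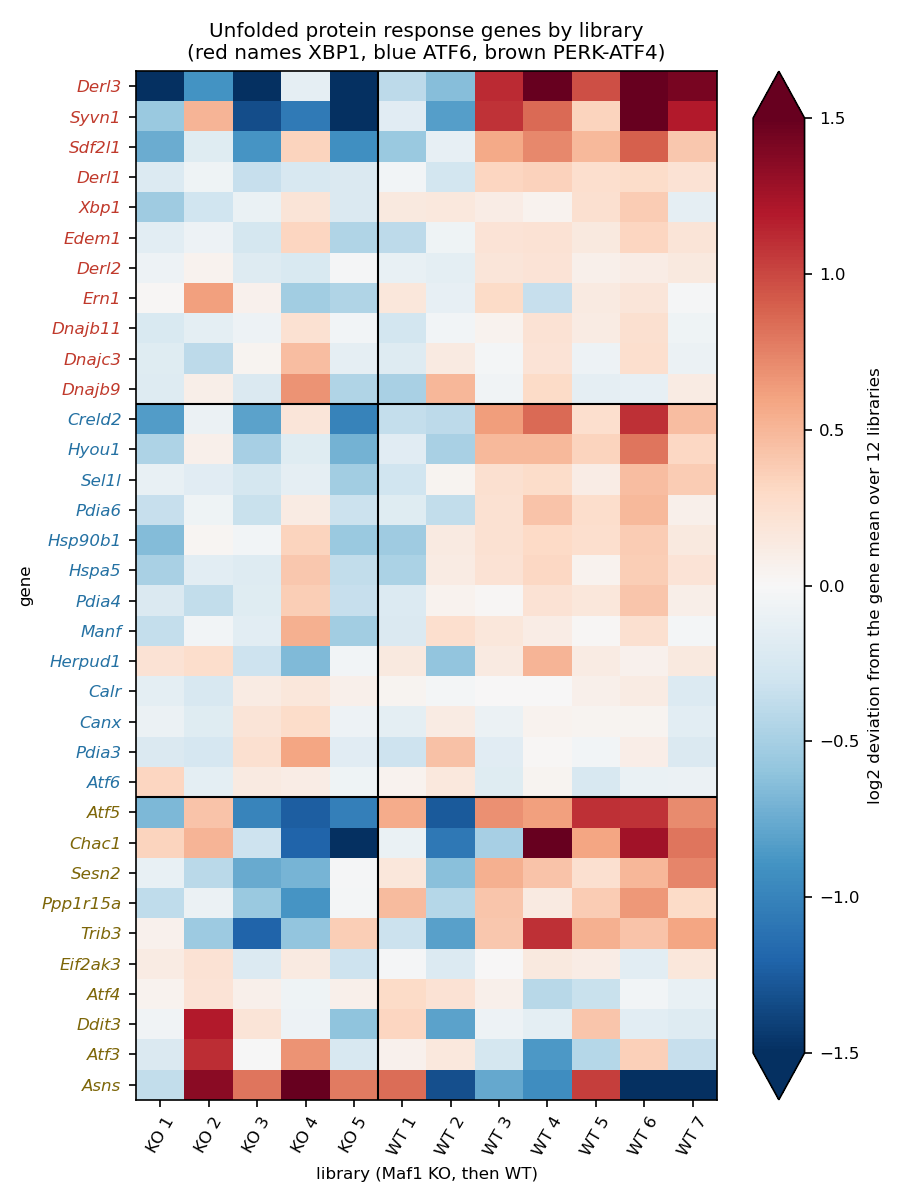
Log2 deviation of each of the 34 genes (rows, ordered by fold change within a branch) from its own mean over the 12 libraries (columns, 5 *Maf1*-/- libraries left of 7 WT libraries), with red above and blue below the mean and colours saturating at the ends of the bar. The upper rows of the XBP1 and ATF6 branches were blue in most *Maf1*-/- libraries and also in WT 1 and WT 2, and *Asns* ran the other way.

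The libraries did not divide by genotype alone. WT 1 and WT 2 each lay nearer the *Maf1*-/- mean than the mean of the other WT libraries for 25 of the 34 genes, against 4 to 7 genes for each of the other WT libraries. For WT 2 this was so for most genes of the table, as given above, while for WT 1 it was so for 38.2% of all genes. WT 1 was also the deepest library, and its GC slope of 0.34 was in the range of the WT libraries other than WT 2. KO 4, the fourth *Maf1*-/- library, was the highest of its group for 17 of the 34 genes, and KO 5 the lowest for 13. Without WT 1, 17 of the 34 genes were lower at an unadjusted p under 0.05 (11.5% of all genes), and without KO 4 also 17 (7.22% of all genes), with none past the threshold in either case.

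In the XBP1 branch all 11 genes had a negative log2 fold change, although 4 of them (*Ern1*, *Dnajb11*, *Dnajc3* and *Dnajb9*) were just above 0 when each library was centred on its median, which moved the median of all genes to 0.07. The median of the branch was -0.21 and the range -2.28 to -0.03. At an unadjusted p under 0.05, 5 were lower, against 13.2% of all genes, and none was higher, against 9.9%. These 5 were *Xbp1* itself, the ER degradation genes *Derl3*, *Syvn1* and *Derl1*, and the cochaperone gene *Sdf2l1*. Without WT 2 the count was 6, with *Derl2* added, against 25.8% of all genes, and 1 gene (*Derl3*) passed the threshold, against 6.79%.

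*Derl3* encodes a derlin, a membrane protein of the channel through which misfolded proteins leave the ER. Its log2 values were 2.11, 2.95, 2.19, 3.71 and 1.61 in the *Maf1*-/- libraries, against 3.45, 3.21, 4.97, 5.82, 4.81, 6.03 and 5.26 in the WT libraries. Only KO 4 reached into the WT range, and WT 1 and WT 2 were the lowest WT libraries. The log2 fold change was -2.28 (SE 0.52), a level 4.85-fold lower in *Maf1*-/- liver, with an unadjusted p of 0.000775 and an adjusted p of 0.192 in limma. The read counts behind it were 105 to 479 in *Maf1*-/- and 378 to 2554 in WT libraries.

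*Syvn1* encodes HRD1, the ubiquitin ligase at the centre of ER degradation, and its product works beside the derlins. Its log2 values were 5.05, 6.12, 4.29, 4.56 and 4.09 in *Maf1*-/- libraries, against 5.44, 4.79, 6.70, 6.46, 5.95, 7.11 and 6.81 in WT libraries. KO 2 lay above 3 of the WT libraries, and WT 2 lay below 2 of the *Maf1*-/- libraries. The log2 fold change was -1.36 (SE 0.43, adjusted p = 0.192 in limma). The gene overlaps *Mrpl49* on the opposite strand, and the strand setting of the authors' counting is not given in the sources used here.

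*Derl1*, another derlin, had a smaller fold change and less spread within the groups. It had log2 values of 6.52, 6.66, 6.38, 6.49 and 6.51 in *Maf1*-/- libraries, against 6.68, 6.44, 7.05, 7.07, 6.98, 7.00 and 6.94 in WT libraries. All *Maf1*-/- libraries lay below 6 of the 7 WT libraries, WT 2 being the exception, and the log2 fold change was -0.37 (SE 0.12). *Derl2*, the third of the family, had a log2 fold change of -0.16 (SE 0.10), with all *Maf1*-/- libraries below the WT median. Per kilobase of exon, *Derl3* had a mean log2 level of 2.10 in *Maf1*-/- and 4.37 in WT liver, *Derl2* of 3.39 and 3.55, and *Derl1* of 4.86 and 5.23. By these means *Derl3* stood below *Derl2* in *Maf1*-/- liver and above it in WT liver. That order depends on the length used, all annotated exons merged, which was 1336 bases for *Derl3* and 8049 bases for *Derl2*. Not divided by length, *Derl2* was the higher in both groups. Its mean log2 values were 6.40 in *Maf1*-/- and 6.56 in WT liver, against 2.51 and 4.79 for *Derl3*.

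*Sdf2l1* encodes a partner of the chaperones DNAJB11 and BiP. In log2 CPM it had 5.27, 5.83, 5.13, 6.35 and 5.10 in *Maf1*-/- libraries, against 5.46, 5.89, 6.58, 6.73, 6.50, 6.91 and 6.42 in WT libraries. The ranges overlapped through WT 1, WT 2 and KO 4, and the log2 fold change was -0.82 (SE 0.28).

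*Xbp1* gave log2 values of 8.04, 8.28, 8.47, 8.77 and 8.35 in *Maf1*-/- libraries, against 8.72, 8.73, 8.69, 8.63, 8.82, 8.95 and 8.44 in WT libraries. KO 4 lay inside the WT range, KO 3 lay just above WT 7, and the other *Maf1*-/- libraries lay below all WT libraries. Its log2 fold change was -0.33 (SE 0.13, unadjusted p = 0.0229 and adjusted p = 0.196 in limma), here for spliced and unspliced mRNA together. *Ern1*, which encodes the sensor that splices it, had log2 values of 6.06, 6.65, 6.10, 5.51 and 5.59 in *Maf1*-/- libraries, against 6.20, 5.91, 6.32, 5.69, 6.18, 6.22 and 6.02 in WT libraries. These overlapped throughout, with a log2 fold change of -0.10 (SE 0.19). The other genes of the branch were *Edem1*, whose product takes mannose-trimmed proteins to degradation, at -0.21 (SE 0.15), and the J-domain cochaperone genes *Dnajb11* (-0.09, SE 0.11), *Dnajc3* (-0.07, SE 0.14) and *Dnajb9* (-0.03, SE 0.20).

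**Figure D2:**
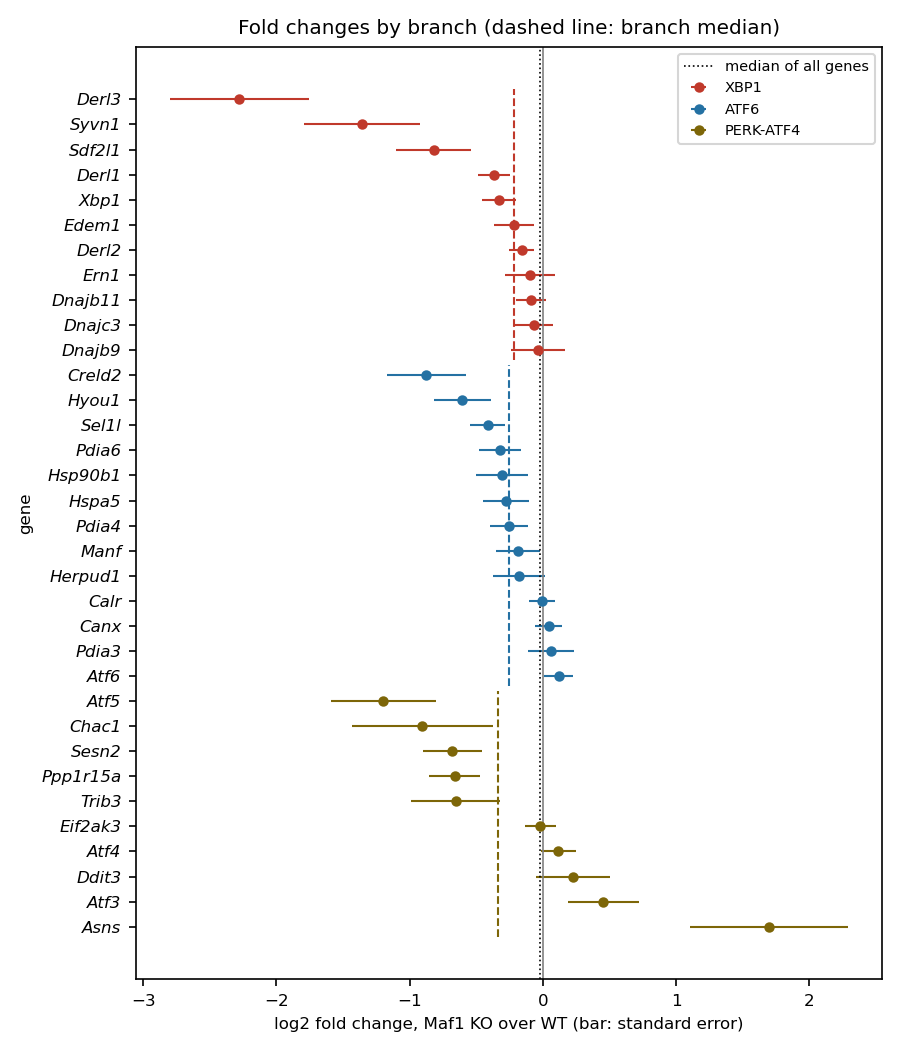
Log2 fold change, *Maf1*-/- over WT, of the 34 genes by branch, with bars for the standard error from limma, a dashed line at the median of each branch and a dotted line at the median of all genes (-0.02). All 11 XBP1 genes lay left of 0, the ATF6 genes lay between -0.88 and 0.12, and the PERK-ATF4 genes spread from -1.20 to 1.70.

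In the ATF6 branch 10 of 13 genes had a negative log2 fold change, with a median of -0.26 and a range of -0.88 to 0.12. At an unadjusted p under 0.05, 3 were lower (*Sel1l*, *Creld2* and *Hyou1*), which is 23.1% against 13.2% of all genes, and none was higher. Without WT 2 the count was 4, with *Pdia6* added, a share of 30.8% that is near the 25.8% of all genes in that setting. None passed the threshold there, against 6.79% of all genes. The fold changes were negative for the chaperones and for the ER degradation genes, and near 0 for the lectins.

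*Sel1l* encodes the adaptor that holds HRD1 to its substrates. Its log2 values were 8.25, 8.19, 8.11, 8.23 and 7.85 in *Maf1*-/- libraries, against 8.07, 8.41, 8.61, 8.65, 8.48, 8.83 and 8.75 in WT libraries. Every WT library except WT 1 lay above every *Maf1*-/- library, and the log2 fold change was -0.42 (SE 0.13, adjusted p = 0.192 in limma). *Herpud1*, which encodes a membrane protein of the same complex, had a log2 fold change of -0.18 (SE 0.20). With *Derl1*, *Derl2*, *Derl3*, *Syvn1* and *Edem1* these make up the 7 ER degradation genes, which had a median of -0.37. All 7 were negative, against 52.9% of all genes, and 4 were lower at an unadjusted p under 0.05, against 13.2%. Without WT 2 the count lower was 5, against 25.8% of all genes.

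*Creld2* encodes a protein of the ER lumen that is induced by ER stress. It had log2 values of 6.50, 7.26, 6.54, 7.52 and 6.33 in *Maf1*-/- libraries, against 6.99, 6.95, 7.96, 8.19, 7.60, 8.44 and 7.81 in WT libraries. KO 2 and KO 4 lay above WT 1 and WT 2 and below the other 5 WT libraries. The log2 fold change was -0.88 (SE 0.29), a level 1.83-fold lower in *Maf1*-/- liver. *Hyou1*, the gene of a large chaperone that exchanges the nucleotide on BiP, had log2 values of 8.59, 9.13, 8.56, 8.88 and 8.34 in *Maf1*-/- libraries, against 8.88, 8.57, 9.54, 9.54, 9.38, 9.86 and 9.37 in WT libraries. Again only WT 1 and WT 2 lay within the *Maf1*-/- range, and the log2 fold change was -0.61 (SE 0.21).

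*Hspa5* encodes BiP, the main chaperone of the ER lumen and the usual readout of the whole response. BiP mRNA had log2 values of 11.12, 11.44, 11.41, 12.01 and 11.23 in *Maf1*-/- libraries, against 11.13, 11.72, 11.82, 11.91, 11.65, 11.97 and 11.81 in WT libraries. KO 4 was the highest of all 12 libraries and WT 1 was close to the lowest, so that the ranges overlapped almost fully. The log2 fold change was -0.27 (SE 0.17, unadjusted p = 0.138 and adjusted p = 0.314 in limma), and per kilobase of exon *Hspa5* had the highest mean log2 level of the 34 genes in both groups (9.63 in *Maf1*-/- and 9.90 in WT liver). *Hsp90b1*, which encodes the ER form of HSP90, had a log2 fold change of -0.30 (SE 0.20), with KO 4 the highest *Maf1*-/- and WT 1 the lowest WT library. *Manf*, a gene for a secreted BiP cofactor, had one of -0.19 (SE 0.16). *Hsp90b1* and *Manf* each overlap another listed gene on their own strand, *Gm15344* and *Rbm15b*.

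Among the oxidoreductases, *Pdia6* had log2 values of 8.15, 8.43, 8.16, 8.62 and 8.17 in *Maf1*-/- libraries, against 8.31, 8.13, 8.72, 8.92, 8.76, 8.98 and 8.57 in WT libraries. Its log2 fold change was -0.32 (SE 0.16, unadjusted p = 0.0657 in limma), with all *Maf1*-/- libraries below the WT median. *Pdia4* had one of -0.26 (SE 0.14). The lectins *Calr* (-0.01, SE 0.10) and *Canx* (0.04, SE 0.10) and their partner *Pdia3* (0.06, SE 0.17), which together hold newly made glycoproteins, were the genes of the branch nearest to 0. The sensor gene *Atf6* had log2 values of 7.24, 6.77, 7.05, 7.03 and 6.85 in *Maf1*-/- libraries, against 6.97, 7.08, 6.74, 6.96, 6.68, 6.82 and 6.83 in WT libraries. These overlapped, and the log2 fold change of 0.12 (SE 0.11) was the highest of the branch.

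**Figure D3:**
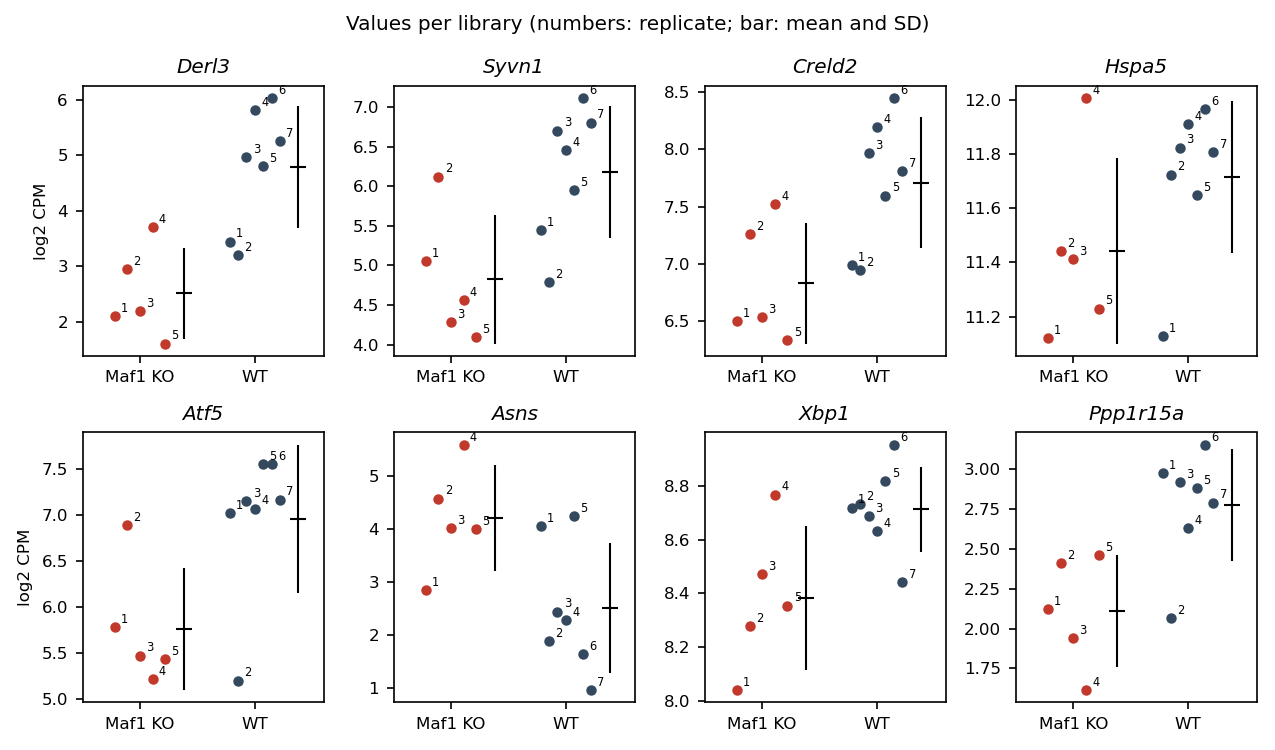
Log2 CPM in each library for 8 of the 34 genes, with *Maf1*-/- libraries (red) left of WT libraries (grey), replicate numbers beside the points, and the mean and SD of each group as a bar (n = 5 *Maf1*-/-, n = 7 WT). The vertical axes do not start at 0 and differ between panels. In the *Derl3* panel KO 4 at 3.71 is the only *Maf1*-/- library above WT 1 and WT 2.

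In the PERK-ATF4 branch the fold changes had both signs. Of 10 genes, 6 had a negative and 4 a positive log2 fold change, and the range of -1.20 to 1.70 was the widest of the branches. At an unadjusted p under 0.05, 3 were lower (*Ppp1r15a*, *Sesn2* and *Atf5*), against 13.2% of all genes, and 1 was higher (*Asns*), against 9.9%. The median of -0.34 lay in the gap between *Trib3* at -0.65 and *Eif2ak3* at -0.02, so that no gene of the branch lay near it, and it was 0.05 when *Trib3* and *Chac1* were removed by a minimum mean log2 value of 1. Without WT 2, 5 were lower, with *Trib3* and *Chac1* added (25.8% of all genes), and *Atf5*, *Ppp1r15a* and *Sesn2* passed the threshold, against 6.79% of all genes.

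The sensor gene *Eif2ak3* had log2 values of 4.54, 4.63, 4.20, 4.54 and 4.10 in *Maf1*-/- libraries, against 4.40, 4.20, 4.43, 4.56, 4.53, 4.25 and 4.58 in WT libraries. *Atf4*, which is regulated mainly at translation, had log2 values of 6.72, 6.88, 6.75, 6.61 and 6.75 in *Maf1*-/- libraries, against 6.96, 6.88, 6.75, 6.25, 6.34, 6.63 and 6.56 in WT libraries. The groups overlapped for both genes, at log2 fold changes of -0.02 (SE 0.12) for *Eif2ak3* and 0.12 (SE 0.13) for *Atf4*. *Ddit3*, which encodes the proapoptotic factor CHOP, had log2 values of 2.86, 4.11, 3.11, 2.84 and 2.31 in *Maf1*-/- libraries, against 3.24, 2.11, 2.84, 2.76, 3.33, 2.76 and 2.72 in WT libraries. KO 2 alone stood above all WT libraries, and the log2 fold change was 0.23 (SE 0.28), which became -0.04 without KO 2. *Ddit3* overlaps *Mars* on the opposite strand.

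*Atf5* encodes a transcription factor that, like ATF4, is translated when eIF2 alpha is phosphorylated. Its log2 values were 5.79, 6.89, 5.47, 5.22 and 5.43 in *Maf1*-/- libraries, against 7.02, 5.20, 7.15, 7.07, 7.55, 7.55 and 7.17 in WT libraries. WT 2 was the lowest of all 12 libraries, and the other 6 WT libraries lay above every *Maf1*-/- library. The log2 fold change was -1.20 (SE 0.40, adjusted p = 0.192 in limma) with WT 2, and -1.49 (SE 0.26, adjusted p = 0.00654 in limma) without it. With a GC and length correction and without WT 2 it was -0.95 (adjusted p = 0.0284 in limma), which did not pass the threshold. *Atf5* overlaps *Il4i1* and *Nup62*, both on the opposite strand, and at a GC content of 60.2% it was the most GC-rich of the 34 genes.

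*Ppp1r15a* encodes GADD34, the phosphatase subunit that reverses the action of PERK on eIF2 alpha. It had log2 values of 2.12, 2.41, 1.94, 1.61 and 2.46 in *Maf1*-/- libraries, against 2.97, 2.07, 2.92, 2.63, 2.88, 3.15 and 2.79 in WT libraries. All but WT 2 of the WT libraries lay above all *Maf1*-/- libraries, with a log2 fold change of -0.66 (SE 0.19) on 112 to 205 reads in *Maf1*-/- and 171 to 401 reads in WT libraries. *Sesn2*, which encodes a leucine sensor upstream of mTORC1, had log2 values of 1.64, 1.35, 1.00, 1.06 and 1.73 in *Maf1*-/- libraries, against 1.92, 1.13, 2.29, 2.18, 1.99, 2.25 and 2.48 in WT libraries. WT 2 was again the exception, and the log2 fold change was -0.68 (SE 0.22) on 74 to 126 reads in *Maf1*-/- and 89 to 266 reads in WT libraries.

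*Asns* encodes asparagine synthetase and is a classical ATF4 target. In the *Maf1*-/- libraries the log2 values were 2.85, 4.57, 4.02, 5.59 and 3.99, against 4.05, 1.90, 2.44, 2.29, 4.25, 1.65 and 0.97 in the WT libraries. WT 1 and WT 5 lay among the *Maf1*-/- libraries, and the other WT libraries below all of them. At 1.70 (SE 0.59), a level 3.24-fold higher in *Maf1*-/- liver, it had the highest log2 fold change of the 34 genes (unadjusted p = 0.0136 and adjusted p = 0.192 in limma). The other genes of the branch were the pseudokinase gene *Trib3* (-0.65, SE 0.33), the glutathione-degrading enzyme gene *Chac1* (-0.90, SE 0.53) and the transcription factor gene *Atf3* (0.45, SE 0.27). *Chac1* rested on 2 to 15 reads in *Maf1*-/- and 5 to 31 reads in WT libraries, and its log2 fold change was -0.54 without KO 5 and -0.21 with a pseudocount of 1.

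Set side by side, the sensor genes *Ern1*, *Atf6* and *Eif2ak3* lay between -0.10 and 0.12. By role, the lowest median was that of the 5 effector genes of the PERK-ATF4 branch, at -0.66, with 4 negative and 1 (*Asns*) positive. The ER degradation genes had a median of -0.37 and the 9 chaperones and cochaperones one of -0.27. For the 5 lectins and oxidoreductases it was -0.01, and for the 5 transcription factors 0.12. A set of 9 genes was counted as answering to both XBP1 and ATF6, and it is not the set of 9 ERSE genes. It held *Derl3*, *Syvn1*, *Sdf2l1*, *Dnajb11*, *Dnajc3*, *Hyou1*, *Sel1l*, *Pdia6* and *Herpud1*. These had a median of -0.42 and were all negative (*Dnajb11* and *Dnajc3* not with median centring), against 52.9% of all genes. At an unadjusted p under 0.05, 5 of them were lower, against 13.2% of all genes, and 6 without WT 2, against 25.8%. Leaving them out gave a median of -0.19 for the XBP1 branch and -0.19 for the ATF6 branch. The difference between branches was not tested.

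**Figure D4:**
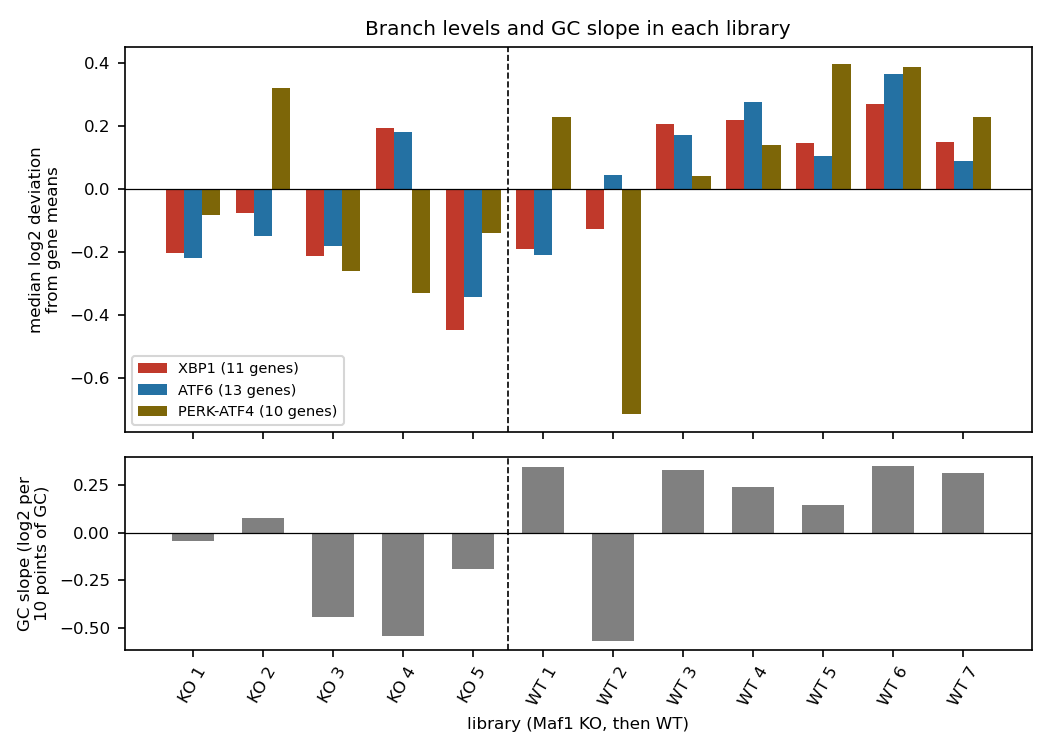
Median log2 deviation of the genes of each branch from their means (upper panel, red XBP1, blue ATF6, brown PERK-ATF4) and slope of expression on GC content (lower panel, log2 units per 10 points of GC) in the 5 *Maf1*-/- libraries, left of the dashed line, and the 7 WT libraries. WT 2 was at -0.71 for the PERK-ATF4 branch and had the lowest GC slope of the WT libraries.

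The branches differed in GC content, with a median of 55.0% for the PERK-ATF4 genes, 49.2% for the XBP1 genes and 46.8% for the ATF6 genes, against 49.5% for all genes. GC-rich genes ran lower in WT 2 and in several *Maf1*-/- libraries, as the slopes show. When a trend on GC content and exon length was removed from each library, 17 of the 34 genes were lower at an unadjusted p under 0.05, against 13.7% of all genes, and none passed the threshold, against 0.00801%. The counts by branch were 7 of 11 for XBP1, 8 of 13 for ATF6 and 2 of 10 for PERK-ATF4, with medians of -0.35, -0.35 and -0.16, and all 24 genes of the XBP1 and ATF6 branches were negative. *Hspa5* was at -0.44 and *Hsp90b1* at -0.56 after the correction, both lower at an unadjusted p under 0.05, and *Canx*, which is GC-poor, was at -0.25. *Derl3* was at -2.01, *Syvn1* at -0.99 and *Atf5* at -0.78, while *Sesn2* was at -0.27 and *Asns* at 1.68.

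By promoter element, the 9 ERSE genes spread from *Derl3* at -2.28 to *Canx* at 0.04, with a median of -0.30 and 3 lower at an unadjusted p under 0.05 (*Derl3*, *Syvn1* and *Creld2*), against 13.2% of all genes. Without WT 2 there were 4, with *Pdia6* added, against 25.8%. The other 9 measured genes with an ERSE in their window, which are not among the 34, had a median of -0.03, with 1 lower and 1 higher at that p. The 4 PERK-ATF4 genes with the C/EBP-ATF core spanned -0.90 (*Chac1*, on the few reads given above) to 1.70 (*Asns*), while *Atf5*, *Sesn2* and *Ppp1r15a* had no such match in the window. Within each element the fold changes differed in size or sign.

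**Figure D5:**
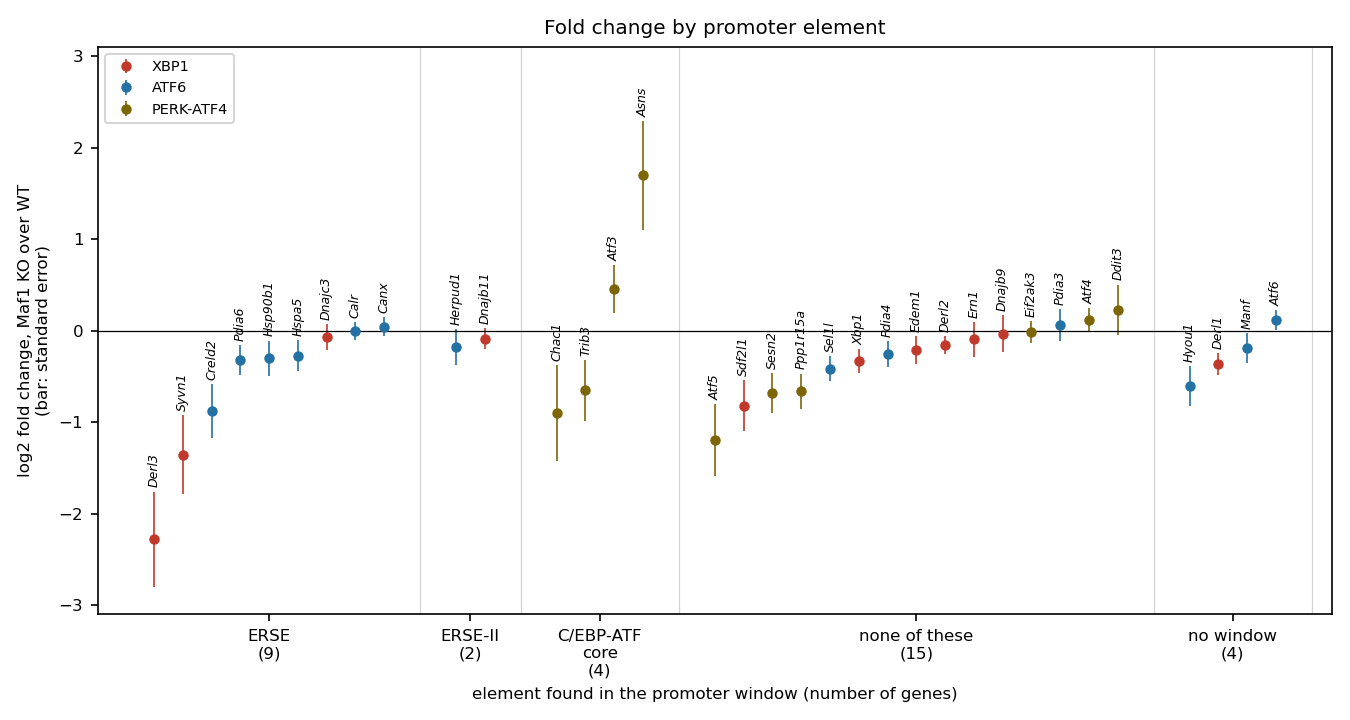
Log2 fold change, *Maf1*-/- over WT, with bars for the standard error from limma, of the 34 genes grouped by the element found in the promoter window (ERSE, ERSE-II, C/EBP-ATF core, none of these, or no window), coloured by branch. *Herpud1*, which held both ERSE-II and the C/EBP-ATF core, is drawn under ERSE-II. The ERSE genes range from -2.28 to 0.04.

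Beyond the 34 genes, 198 further genes of the same pathway were measured, from lists of textbook function. None passed the threshold, against 0.015% of all genes. At an unadjusted p under 0.05, 37 (18.7%) were lower and 9 (4.55%) higher, against 13.2% and 9.9% of all genes, and the median log2 fold change was -0.11 against -0.02. Without WT 2, 19 passed, against 6.79% of all genes, and 72 (36.4%) were lower, against 25.8%. The lists below are counted at the same p with all libraries. Other ER degradation genes counted 9 lower (20.5%) and 2 higher of 44, led by the membrane ubiquitin-like protein gene *Tmub2* (-0.52, SE 0.16), *Ubqln4* (-0.55, SE 0.17) and *Bag6* (-0.85, SE 0.32), whose products carry proteins to the proteasome. Among 17 genes of N-glycosylation and glucose trimming 4 were lower (23.5%) and 1 higher, with *Dpagt1*, the enzyme gene of the first step of the lipid-linked sugar, at -1.03 (SE 0.36), *Prkcsh*, a subunit of glucosidase II, at -0.58 (SE 0.25) and *Uggt2*, related to the folding sensor of glycoproteins, at 0.35 (SE 0.14). Of 24 genes of signal peptide and translocation 4 were lower (16.7%, near the share of all genes) and 1 higher, with *Sec61a1*, the channel through which proteins enter the ER, at -0.38 (SE 0.14), and the signal recognition particle receptor genes *Srprb* at -0.53 (SE 0.20) and *Srpr* at -0.28 (SE 0.11).

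The 25 secretory transport genes under XBP1 had 3 lower (12%, no more than the 13.2% of all genes) and none higher. The 3 were the COPII coat gene *Sec24d* (-0.41, SE 0.12) and the cargo receptor genes *Surf4* (-0.53, SE 0.16) and *Lman2* (-0.41, SE 0.15). The 32 other folding enzymes and chaperones had 4 lower (12.5%, again no more than among all genes) and 2 higher. The smallest p were those of the prolyl isomerase gene *Fkbp7* (0.42, SE 0.13), the sulfhydryl oxidase gene *Qsox1* (-0.53, SE 0.19) and *Cnpy3* (-0.60, SE 0.22), which encodes a chaperone of Toll-like receptors. Of 12 genes of other sensors and their processing 4 were lower (33.3%) and 1 higher, with the IRE1 modulator *Tmbim6* at -0.50 (SE 0.15), *Wfs1*, the gene of wolframin, at -0.71 (SE 0.24) and the stress factor gene *Nupr1* at 0.75 (SE 0.26). *Creb3l3*, which encodes a liver factor cut like ATF6, was at -0.42 (SE 0.15).

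On the PERK-ATF4 side, the 29 other ATF4 and CHOP target genes had 7 lower (24.1%) and 2 higher and a median of 0.05. *Fgf21*, the gene of a fasting hormone, was 3.99-fold lower in *Maf1*-/- liver (SE 0.74 on the log2 scale) and *Wars*, a tRNA synthetase gene, had a log2 fold change of -0.49 (SE 0.17). *Nupr1*, given above, belongs to this list as well. The 8 genes of eIF2 alpha kinases and the phosphatase ran the other way, with 3 negative and a median of 0.21. Of them 1 was lower and 1 higher (12.5% each), against 13.2% and 9.9% of all genes. Without WT 2, 1 was lower and 5 were higher (62.5%), against 25.8% and 17.7% of all genes. With all libraries the haem-regulated kinase gene *Eif2ak1* was at -0.23 (SE 0.08), *Eif2ak2*, which encodes the double-stranded RNA kinase PKR, at 0.37 (SE 0.15), and *Ppp1r15b* at 0.18 (SE 0.09). Of 9 substrates of mRNA decay by IRE1 only *Pmp22* had an unadjusted p under 0.05, at -0.29 (SE 0.13).

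*Derl3* and other secretory genes are high in plasma cells and pancreatic acinar cells, and markers of both were read for that reason. Of 19 plasma cell and B cell markers 12 were measured. At an unadjusted p under 0.05, 3 were higher (25%) and 1 lower (8.33%), against 9.9% and 13.2% of all genes. Their summed level was 171 to 345 CPM in *Maf1*-/- and 165 to 333 in WT libraries, and the joining chain gene *Jchain* had log2 values of 2.24 to 4.05 in *Maf1*-/- and 0.04 to 2.51 in WT libraries. Of the 12 markers 5 had a negative log2 fold change. Among immunoglobulin genes *Igkc* had a log2 fold change of 0.77 (SE 0.38), *Ighg2b* of 0.99 (SE 0.26) and *Ighm* of -0.34 (SE 0.20). Of 14 acinar markers only *Cela1* was measured, at log2 values of 1.75 to 3.13 in *Maf1*-/- and 2.19 to 3.74 in WT libraries (-0.68, SE 0.29).

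Markers of other liver and blood cells were read in the same way. Negative log2 fold changes, the sign of most of the 34 genes, were found for 9 of 11 Kupffer cell and macrophage markers (median -0.21, none at an unadjusted p under 0.05), 5 of 6 cholangiocyte markers (median -0.50, 1 lower) and 5 of 5 erythroid markers (median -0.98, 1 lower, and 5 lower without WT 2). Of all genes 52.9% were negative, and 13.2% were lower at that p, or 25.8% without WT 2. The summed levels overlapped between the groups. They were 336 to 491 CPM in *Maf1*-/- and 319 to 596 in WT libraries for the Kupffer cell and macrophage list, 29.1 to 91.6 in *Maf1*-/- and 40.5 to 95.5 in WT libraries for the cholangiocyte list, and 62.2 to 100.4 in *Maf1*-/- and 66.5 to 140.4 in WT libraries for the erythroid list. The endothelial and stellate cell lists had medians of 0.05 and 0.12, with 4 of 10 markers negative in each. The part of any of these cell types in the values of the 34 genes was not tested.

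The nutritional state was read from 8 genes high in the fed liver, none of them at an unadjusted p under 0.05 and their median at 0.20. It was also read from 10 genes high in the fasted liver, with a median of -0.45. Of these, 2 were lower (*Irs2* at -1.21, SE 0.34, and *Angptl4* at -0.80, SE 0.31), which is 20% against 13.2% of all genes. Without WT 2, 6 were lower (60%), against 25.8% of all genes. The part of the nutritional state in the values of the 34 genes was not tested.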

How the data were processed

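Total RNA libraries (TruSeq Stranded Total RNA with removal of ribosomal and globin RNA) were sequenced at 100 cycles. The authors used cutadapt 1.8 for trimming and discarded ribosomal and low-complexity reads. Alignment to GRCm38 was with STAR 2.5.2b and counting per gene with HTSeq 0.6.1, after which the authors scaled the libraries in edgeR 3.14.0. The authors added RUVSeq factors to their limma 3.28.21 tests, of a kind and number not given in the sources used here. The deposited log2 values return whole reads plus 0.5 (100% of values within 0.001 of a read). The table's name reads RPKM, but the values are not divided by gene length, and the plan was kept as written. The deposited pol III scores were not used here, and 0 columns lacked a sample.

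Here limma 3.58.1 in R 4.3.3 compared genotypes over 13304 genes, with empirical Bayes variances without trend and Benjamini-Hochberg adjustment. The fit was tested on simulated data over the same genes before use. GC content and exon length were taken by gene identifier from NCBIM37 for 93.8% of genes and removed by loess (span 0.4). Promoter motifs were searched by their textbook consensus letters, set by hand. The 34 genes, the branches and the lists were chosen with earlier results of these data known. Values per library were given for the branch heads, *Hspa5*, *Ddit3* and up to 4 further genes per branch with the smallest unadjusted p, and for each other list up to 3 genes with the smallest unadjusted p were named, and *Creb3l3* as the fourth of its list was chosen after its values were seen. The alternatives tried, among them 1 residual factor, other scaling, weights, a pseudocount of 1, a minimum mean log2 value of 1 and each library left out, are given in the closing section. The labels give 1 library per mouse, so that p-values measure the spread between mice.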

Additional observations from a re-analysis of the deposited data

Results flagged for a closer look

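Of 80 groups of values examined (the 34 genes, *Maf1*, the branch medians, depth and GC slope, each in both genotypes), 9 held a library whose gap to its neighbour was large for the range of its group, and chance gives about 1 in 20. In the *Maf1*-/- group this was KO 4 for *Pdia4*, with a log2 value of 9.99 against 9.44 for the next library. In the WT group WT 1 was low for *Hspa5* (11.13, next 11.65) and for *Hsp90b1* (10.74, next 11.40) and was the deepest library, with 55787438 reads against 43721818 for the next. WT 2 was low for *Atf5* (5.20, next 7.02), *Herpud1* (7.36, next 8.02) and *Sesn2* (1.13, next 1.92), for the median deviation of the PERK-ATF4 branch (-0.71, next 0.04) and for the GC slope (-0.57, next 0.14). Their part in the fold changes was not tested beyond leaving each library out.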

How the results depend on the processing

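Of the 34 genes, 22 kept their sign under all 24 alternatives (23 planned, 1 added after seeing the data), and *Trib3* and *Chac1* kept theirs under 23, being left out by the minimum mean log2 value. Genes past the threshold numbered 5 with 1 residual factor (8.09% of all genes), 10 with library weights (15.2%, with WT 2 weighted at 0.17) and 1 with the GC and length correction and 1 factor (1.46%), and 0 to 4 with a library left out. Other pathway genes past it numbered 13, 35 and 3 under the same settings, and 0 to 19 with a library left out. Genes lower at an unadjusted p under 0.05 numbered 17 with the GC and length correction, with or without the factor, 19 with library weights, 18 with the correction without WT 2 (added, 24.4% of all genes), and 10 to 17 with a library left out (6.52% to 25.8%). With the correction without WT 2, 0 of the 34 genes passed the threshold, against 0.128% of all genes. The branch median of PERK-ATF4 was 0.049 with a minimum mean log2 value of 1, and that of XBP1 was -0.42 with the correction without WT 2. The cause of these changes was not tested.

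Signs turned for *Ern1* (0.0033), *Eif2ak3* (0.082), *Dnajb9* (0.066), *Dnajb11* (0.011), *Dnajc3* (0.031) and *Calr* (0.093) with median centring. They turned for *Atf6* (-0.042), *Pdia3* (-0.12) and *Canx* (-0.25) with the GC and length correction, with or without the factor, at -0.037, -0.098 and -0.21 with it and the block, and at -0.058, -0.10 and -0.31 with it without WT 2. With a library left out, *Dnajb9* ran from -0.21 to 0.075, *Calr* from -0.050 to 0.051, *Ddit3* from -0.040 to 0.41, *Dnajc3* from -0.20 to 0.019, *Eif2ak3* from -0.074 to 0.057, *Ern1* from -0.26 to 0.021, *Pdia3* from -0.075 to 0.14 and *Canx* from -0.019 to 0.096.

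Libraries with the same replicate number did not deviate together (correlations of 0.23, -0.46, -0.18, -0.03 and -0.07), so the numbers were not taken as pairs. With the replicate number as a block over libraries 1 to 5, which drops WT 6 and WT 7, 4 genes were lower at an unadjusted p under 0.05 (6 with the GC and length correction), 0 were higher and 0 passed the threshold.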
